A study of Mus musculus with 12 samples.

Results

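The SOXF and ETS transcription factor genes of endothelial cells examined here were 8 genes, Sox7, Sox17, Sox18, Erg, Fli1, Ets1, Ets2 and Elk3, chosen by name, and all 8 were among the 24394 genes listed in every table. RNA came from lung endothelial cells of postnatal day 5 mice of the C57BL/6J strain, sorted by flow cytometry, in 3 groups of 4 libraries. L12YT-ECKO mice carried floxed Lats1, Lats2, Yap and TAZ alleles with a VE-cadherin-CreERT2 transgene, an inducible Cre recombinase under an endothelial promoter. L12-ECKO mice carried the same Cre with floxed Lats1 and Lats2 only, and WT mice were wild type. The dosing that activates CreERT2, and whether WT mice carried Cre or received it, are not stated in the labels. LATS1 and LATS2 are the Hippo pathway kinases that hold back the co-activators YAP and TAZ (TAZ is encoded by Wwtr1), so L12-ECKO asks what loss of the kinases does and L12YT-ECKO whether YAP and TAZ are needed for it.

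SOXF factors bind DNA through an HMG box. SOX7, SOX17 and SOX18 overlap in function in vessel development: SOX17 is known for arterial identity and SOX18 for the start of lymphatic specification. ETS factors share a winged-helix ETS domain that recognises a GGAA core, which occurs in nearly all enhancers active in endothelium. ERG and FLI1 maintain endothelial identity, junctions and quiescence, ETS1 and ETS2 are effectors of growth factor signalling through ERK, and ELK3 is a ternary complex factor that works with SRF and can repress.

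Of the 8 genes, Sox17 was the one that passed the test across all genes, and it did so in L12-ECKO versus WT, where it fell 2.23-fold. This call was lost in 10 of 23 alternative fits. In L12YT-ECKO the Sox17 level was close to WT. Ets2 and Ets1 also lay lower in all L12-ECKO libraries than in all WT libraries without passing. Such a separation downward held for 3.36% of all genes tested. The 3 groups overlapped for Erg, an ETS gene closely tied to endothelial identity.

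Values are the authors' normalised log2 expression from 3-prime tag sequencing, on which a difference of 1 is a doubling. The files give no depth. Between 9836 and 13060 genes lay above 0 per library, and none of the 8 genes was at 0 in any library. A run of 32 unrelated rows is shifted by 1 row in 5 tables, those of L12YT-ECKO replicates 3 and 4 and of every L12-ECKO library except replicate 1. These tables are called the batch of 5 here, and the remaining 2 L12YT-ECKO, 1 L12-ECKO and 4 WT libraries the batch of 7. Among the targeted genes, Wwtr1 averaged 8.81 ± 0.51 in L12YT-ECKO, 11.18 ± 0.71 in L12-ECKO and 11.81 ± 0.19 in WT (SD, n = 4 each), and Yap1 averaged 7.72 ± 0.69, 9.97 ± 0.53 and 9.79 ± 0.24 in these groups. Lats2 averaged 8.97 ± 0.43 in L12YT-ECKO, 9.93 ± 0.29 in L12-ECKO and 8.93 ± 0.42 in WT, and Lats1 ranged from 0 to 7.90 in L12YT-ECKO, from 0 to 7.40 in L12-ECKO and from 5.32 to 7.45 in WT. A 3-prime tag outside the deleted exons, which are not given, checks nothing, so the kinase values are no check of the labels.

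The 15 pan-endothelial markers were all detected in each group, and their summed level was 29090 to 31848 CPM in L12YT-ECKO, 27772 to 29460 CPM in L12-ECKO and 29341 to 30108 CPM in WT, where CPM is a gene's scaled share of its library total after the log2 values were converted back. 13 of these markers are also known targets of the factors described here. Egfl7, the highest of the 15, had the same value, 17.72, in every library and so forms a large, fixed part of each sum. The likeness of the sums is thus partly set in advance and is no measure of equal endothelial content. All L12-ECKO sums except that of replicate 2 lay below those of every library of the other groups. In sorted but bulk samples, fewer cells of a kind and less RNA per cell cannot be told apart.

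The 8 genes lie on 6 chromosomes (GRCm38, the build named mm10 in the submitters' notes, GENCODE annotation). Sox7 spans 63943673 to 63950732 on the plus strand of chromosome 14, Sox17 spans 4490931 to 4497354 on the minus strand of chromosome 1 and Sox18 spans 181669836 to 181671640 on the minus strand of chromosome 2. The ETS genes include 2 adjacent pairs that point away from each other. Fli1 (chromosome 9, 32422204 to 32542861, minus strand) and Ets1 (chromosome 9, 32636221 to 32757820, plus strand) are separated by 93.4 kb, and Erg (chromosome 16, 95359169 to 95586593, minus strand) and Ets2 (chromosome 16, 95702075 to 95721051, plus strand) by 115.5 kb, with 0 protein-coding genes between the members of either pair. Elk3 (chromosome 10, 93247414 to 93311135, minus strand) is the only one of the 8 whose last 1000 bases overlap another annotated gene, Cdk17 on the opposite strand. Whether the counting used strand is not given, so Elk3 values are uncertain by any Cdk17 reads there. Cdk17 averaged 9.51 ± 0.39 in L12YT-ECKO, 9.20 ± 0.45 in L12-ECKO and 9.44 ± 0.79 in WT (SD, n = 4 each).

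RefSeq promoter windows (GRCm38.p6, 250 bases before to 50 after a start site) were at hand for 3 of the 8 genes, Erg, Ets2 and Elk3. The adjacent Erg and Ets2 are shown because they share a locus while their values differed in pattern. For Erg the most upstream of 3 start sites is given (chr16:95586544-95586843, minus strand), and for Ets2 its single one (chr16:95702157-95702456, plus strand). 3-prime tags do not tell which start site was used. Capitals mark GGAATG, the core bound by TEAD factors, the DNA-binding partners of YAP and TAZ.
Erg: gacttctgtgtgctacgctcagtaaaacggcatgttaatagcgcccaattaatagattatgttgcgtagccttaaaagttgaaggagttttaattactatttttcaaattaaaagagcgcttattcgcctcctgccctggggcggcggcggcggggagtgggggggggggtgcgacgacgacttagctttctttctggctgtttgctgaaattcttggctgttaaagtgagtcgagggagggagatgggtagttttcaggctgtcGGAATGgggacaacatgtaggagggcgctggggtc
Ets2: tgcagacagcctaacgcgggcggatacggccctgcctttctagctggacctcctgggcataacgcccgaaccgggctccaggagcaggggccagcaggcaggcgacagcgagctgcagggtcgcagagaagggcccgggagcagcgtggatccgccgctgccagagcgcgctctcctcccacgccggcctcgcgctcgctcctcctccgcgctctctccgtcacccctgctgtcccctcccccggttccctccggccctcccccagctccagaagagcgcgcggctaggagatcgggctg
GGAATG on either strand was in 14.7% of 32851 windows of this length, the ETS sequence CCGGAA, which can share its GGAA with it, in 14.9% and the SOX sequence AACAAT in 10.7%. The Erg window shown held 1 GGAATG, and none of the 3 sequences was in the Ets2 or Elk3 window. Of the Erg windows not shown, 1 held 1 GGAATG and the other held 1 AACAAT and no GGAATG. These are matches of letters, not binding sites.

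Sox17 had values of 13.05, 13.11, 13.48 and 13.59 in L12YT-ECKO, 12.54, 11.83, 11.89 and 12.33 in L12-ECKO and 13.29, 13.19, 13.61 and 13.12 in WT. Every L12-ECKO library lay below all 8 others, while L12YT-ECKO and WT overlapped. The means were 13.31 ± 0.27, 12.14 ± 0.34 and 13.30 ± 0.22 in L12YT-ECKO, L12-ECKO and WT (SD, n = 4 each). In L12-ECKO versus WT Sox17 fell by 1.16 (SE 0.224, 95% interval -1.63 to -0.69, limma adjusted p = 0.0267), in a comparison in which 0.481% of the 11634 genes tested were called and 0.189% were called lower. In L12YT-ECKO versus L12-ECKO it differed by 1.16 in the other direction (interval 0.696 to 1.63) and did not pass (limma adjusted p = 0.0595), where 0.0688% of genes were called. Its p was the ninth smallest of all genes tested there. In L12YT-ECKO versus WT the difference was 0.006 (interval -0.46 to 0.47, limma adjusted p = 0.997), where 0.0086% of genes were called.

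The Sox17 call in L12-ECKO versus WT did not hold in every fit. It was lost without WT replicate 1 (limma adjusted p = 0.0771), WT replicate 2 (0.0836), WT replicate 3 (0.0527), L12-ECKO replicate 2 (0.0782) or L12-ECKO replicate 3 (0.0673), with differences of -1.053 to -1.198. Among the libraries compared, it was kept only without WT replicate 4, L12-ECKO replicate 1 or L12-ECKO replicate 4. It was also kept without any 1 L12YT-ECKO library, which leaves the difference at -1.159 and alters only the estimated spread. The call was also lost with the batch as a covariate (difference -1.19, limma adjusted p = 0.147). Within the batch of 7 the single L12-ECKO library, replicate 1, differed from the WT mean by -0.77. That library also had the highest level of myeloid markers, at 7923 CPM, so batch and myeloid content cannot be told apart there. The Sox17 difference between L12YT-ECKO and L12-ECKO was 0.55 within the batch of 7 and 1.52 within the batch of 5. It passed without L12-ECKO replicate 1 (difference 1.295, limma adjusted p = 0.0449).

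Sox7 had values of 8.90, 8.30, 9.24 and 9.61 in L12YT-ECKO, 7.21, 6.54, 8.25 and 7.50 in L12-ECKO and 7.78, 7.74, 8.32 and 7.40 in WT. L12YT-ECKO lay above all L12-ECKO libraries and overlapped WT, its lowest library lying just under the highest WT library. The means were 9.01 ± 0.56 in L12YT-ECKO, 7.37 ± 0.71 in L12-ECKO and 7.81 ± 0.38 in WT (SD, n = 4 each), and L12-ECKO and WT did not differ beyond their spread. The differences were 1.64 (SE 0.500) in L12YT-ECKO versus L12-ECKO and 1.20 (SE 0.500) in L12YT-ECKO versus WT, with limma adjusted p = 0.526 and 0.758. Within the batch of 7 these were 1.39 and 0.79. Sox7 thus did not pass, and its interval for L12YT-ECKO versus WT ran from 0.16 to 2.25.

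Sox18 was the most variable of the 8, with values of 4.18, 6.45, 5.65 and 6.98 in L12YT-ECKO, 9.65, 5.68, 7.82 and 7.90 in L12-ECKO and 3.59, 6.50, 5.91 and 5.67 in WT. In L12-ECKO 3 of the 4 libraries lay above all 8 others, and replicate 2 lay within them. The means were 5.81 ± 1.22, 7.76 ± 1.62 and 5.42 ± 1.27 in L12YT-ECKO, L12-ECKO and WT (SD, n = 4 each). In CPM Sox18 averaged 6.13, 28.7 and 4.66 in these groups, the lowest of the 8 genes in L12YT-ECKO and in WT. Its value of 3.59 in WT replicate 1 lay near 3.01, the lowest above 0 in that library. Sox18 differed by 2.34 in L12-ECKO versus WT (SE 1.07, interval 0.11 to 4.57, limma adjusted p = 0.387) and by -1.95 in L12YT-ECKO versus L12-ECKO (SE 1.07, adjusted p = 0.835), neither of which passed. Without L12-ECKO replicate 1 the first difference was 1.72 and without replicate 2 it was 3.04. Within the batch of 7, where replicate 1 is the only L12-ECKO library, it was 4.23.

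**Figure D1:**
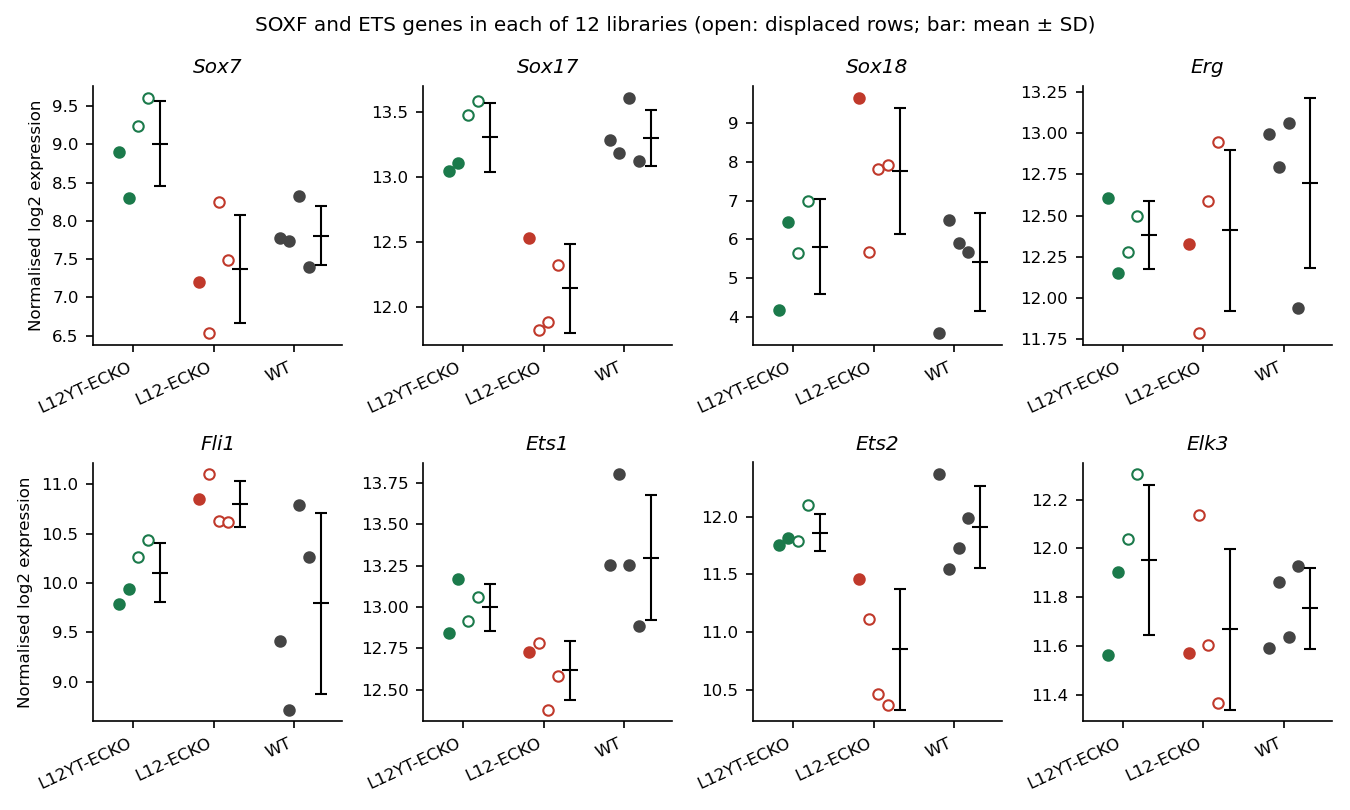
Normalised log2 expression (y axis, own range in each panel) of the 8 genes in each library of L12YT-ECKO, L12-ECKO and WT; open points are libraries with displaced rows, and bars are the mean ± SD of 4 libraries. All 4 Sox17 points of L12-ECKO lie between 11.83 and 12.54, below the 8 points of the other groups, which start at 13.05.

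The means of Ets1 and Fli1 in L12-ECKO lay on opposite sides of WT, and neither gene passed the test. Ets1 had values of 12.85, 13.17, 12.92 and 13.06 in L12YT-ECKO, 12.73, 12.78, 12.38 and 12.58 in L12-ECKO and 13.25, 13.80, 13.25 and 12.89 in WT. All L12-ECKO libraries lay below all others by a small margin, while L12YT-ECKO and WT overlapped. Ets1 differed by -0.68 in L12-ECKO versus WT (SE 0.216, interval -1.13 to -0.23, limma adjusted p = 0.191) and by 0.38 in L12YT-ECKO versus L12-ECKO (SE 0.216, adjusted p = 0.852). Fli1 had values of 9.78, 9.94, 10.26 and 10.44 in L12YT-ECKO, 10.85, 11.10, 10.63 and 10.62 in L12-ECKO and 9.41, 8.72, 10.79 and 10.26 in WT. The L12-ECKO libraries lay above all L12YT-ECKO libraries and above 3 of the 4 WT libraries, WT replicate 3 lying among them. Fli1 differed by 1.01 in L12-ECKO versus WT (SE 0.379, interval 0.21 to 1.80, limma adjusted p = 0.282) and by -0.70 in L12YT-ECKO versus L12-ECKO (SE 0.379, adjusted p = 0.835). Without WT replicate 2 the Fli1 difference from WT in L12-ECKO was 0.65, and without WT replicate 3 it was 1.34.

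Ets2 had values of 11.75, 11.81, 11.79 and 12.10 in L12YT-ECKO, 11.46, 11.12, 10.47 and 10.37 in L12-ECKO and 12.37, 11.55, 11.73 and 11.99 in WT. As for Sox17, all L12-ECKO libraries lay below the other 8, here with a narrow gap. Ets2 averaged 11.86 ± 0.16, 10.85 ± 0.52 and 11.91 ± 0.35 in L12YT-ECKO, L12-ECKO and WT (SD, n = 4 each). The difference was -1.05 in L12-ECKO versus WT (SE 0.280, interval -1.64 to -0.47, limma adjusted p = 0.116) and 1.01 in L12YT-ECKO versus L12-ECKO (SE 0.280, interval 0.42 to 1.59, adjusted p = 0.365), and neither passed. Within the batch of 7 these were -0.45 and 0.32. The interval for L12YT-ECKO versus WT ran from -0.63 to 0.54.

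Erg had values of 12.61, 12.15, 12.28 and 12.50 in L12YT-ECKO, 12.32, 11.79, 12.59 and 12.94 in L12-ECKO and 13.00, 12.79, 13.06 and 11.94 in WT, and the 3 groups overlapped. Its differences were -0.29 in L12-ECKO versus WT (interval -0.87 to 0.30), -0.31 in L12YT-ECKO versus WT (interval -0.90 to 0.27) and -0.03 in L12YT-ECKO versus L12-ECKO (interval -0.61 to 0.56). Without WT replicate 4, its lowest WT library, Erg differed from WT by -0.54 in L12-ECKO and by -0.57 in L12YT-ECKO. Elk3 had values of 11.57, 11.90, 12.04 and 12.30 in L12YT-ECKO, 11.57, 12.14, 11.60 and 11.37 in L12-ECKO and 11.59, 11.86, 11.64 and 11.93 in WT, again with overlap of all groups. Its differences were -0.09 in L12-ECKO versus WT (interval -0.60 to 0.43), 0.20 in L12YT-ECKO versus WT (interval -0.32 to 0.71) and 0.28 in L12YT-ECKO versus L12-ECKO (interval -0.23 to 0.80). Limma adjusted p of these 2 genes ranged from 0.705 to 0.993.

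**Figure D2:**
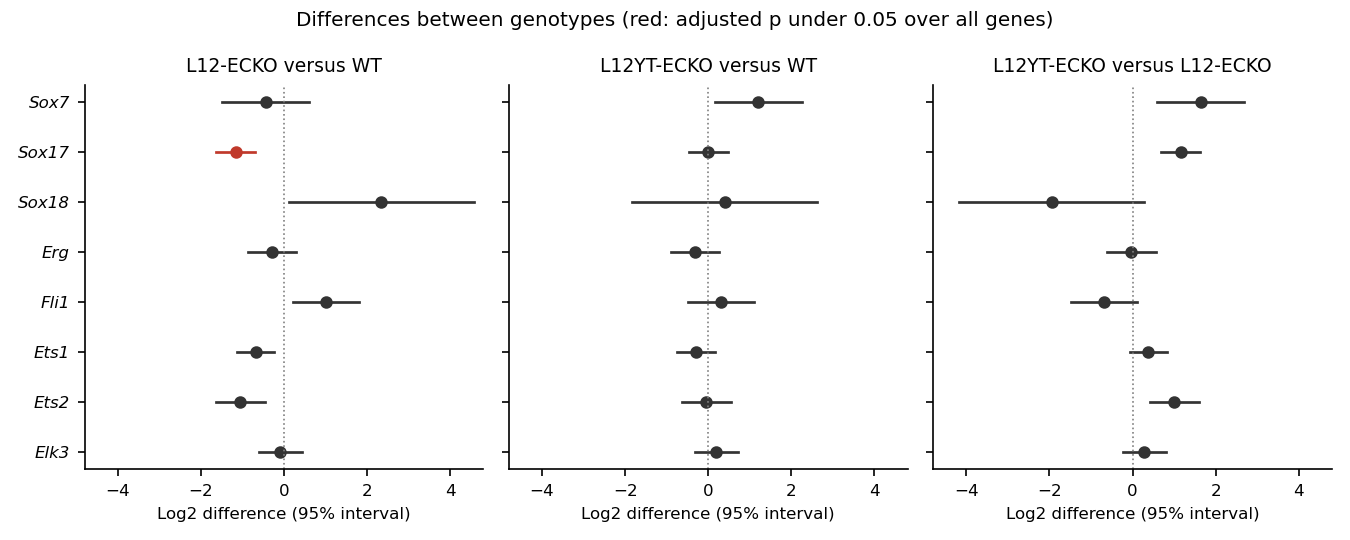
Log2 difference (x axis) with its 95% interval from limma for each of the 8 genes in the 3 comparisons; red marks an adjusted p under 0.05 over all genes tested. Sox17 in L12-ECKO versus WT, at -1.16, is the only red point, and Sox18 has the widest intervals.

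Counted over the 8 genes, 0 were called higher and 1 lower in L12-ECKO versus WT, and 0 were called in either direction in L12YT-ECKO versus WT and in L12YT-ECKO versus L12-ECKO. At an unadjusted p under 0.05 the counts were 5, 1 and 3 genes in these comparisons. Over all genes tested that threshold took in 12.2%, 6.23% and 6.09%. Of all genes tested 0.292% were called higher in L12-ECKO versus WT, 0% higher and 0.0086% lower in L12YT-ECKO versus WT, and 0.0086% higher and 0.0602% lower in L12YT-ECKO versus L12-ECKO. The groups did not overlap for 3 genes in L12-ECKO versus WT, all lower (Sox17, Ets1 and Ets2), where 6.33% of all genes had no overlap, 2.97% higher and 3.36% lower. In L12YT-ECKO versus L12-ECKO they did not overlap for 5 genes: Sox7, Sox17, Ets1 and Ets2 were higher and Fli1 was lower. There 4.38% of all genes had no overlap, 2.75% higher and 1.62% lower. In L12YT-ECKO versus WT the groups overlapped for all 8, and 4.7% of all genes had no overlap, 2.54% higher and 2.17% lower. L12-ECKO versus WT and L12YT-ECKO versus L12-ECKO share the L12-ECKO libraries, and both comparisons with WT share the WT libraries, so their separations are not independent. The median difference of the 8 was -0.36 in L12-ECKO versus WT, 0.10 in L12YT-ECKO versus WT and 0.33 in L12YT-ECKO versus L12-ECKO, against -0.02, 0.08 and 0.09 over all genes tested.

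Differences between paralogues were also taken within each library, on the normalised values. The pairs were chosen for kinship and position with the values known. A separation of groups here restates the differences of the single genes and is no further support. No test is given, nor a share over all gene pairs. Ets1 minus Fli1 was 3.06, 3.23, 2.66 and 2.62 in L12YT-ECKO, 1.87, 1.68, 1.75 and 1.96 in L12-ECKO and 3.84, 5.08, 2.46 and 2.63 in WT. L12-ECKO was thus below all other libraries, and its 4 values lay closer together than those of WT. Sox17 minus Sox18 was 8.87, 6.66, 7.83 and 6.61 in L12YT-ECKO, 2.89, 6.15, 4.07 and 4.42 in L12-ECKO and 9.70, 6.68, 7.70 and 7.46 in WT, again lowest in all 4 L12-ECKO libraries. Sox17 minus Sox7 separated L12YT-ECKO, at 3.98 to 4.81, from WT, at 5.29 to 5.73, with L12-ECKO spread over 3.64 to 5.33. Ets2 minus Erg overlapped in all groups, at -0.85 to -0.34 in L12YT-ECKO, -2.57 to -0.67 in L12-ECKO and -1.33 to 0.05 in WT.

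**Figure D3:**
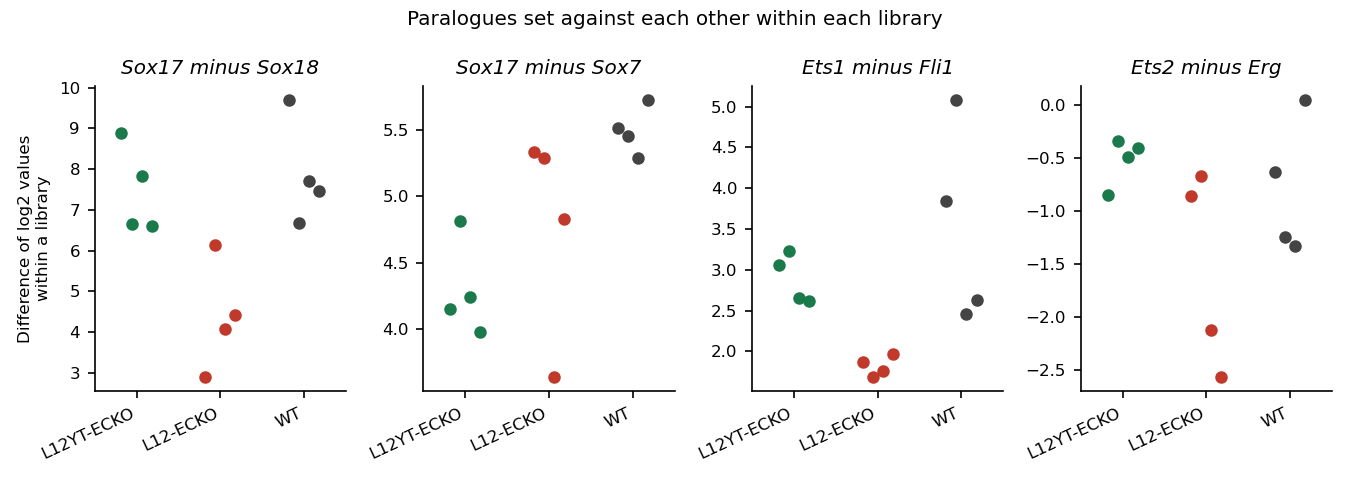
Difference of log2 values between 2 paralogues within a library (y axis, own range in each panel) for L12YT-ECKO, L12-ECKO and WT, 1 point a library. Ets1 minus Fli1 lies at 1.68 to 1.96 in L12-ECKO and at 2.46 or above in every other library.

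Other cells and the batch moved in part with the groups. Myeloid cells express Fli1 and Ets2, and the 11 myeloid markers found summed to 15.3 to 95.6 CPM in L12YT-ECKO, 17.5 to 7923 CPM in L12-ECKO and 13.5 to 297.6 CPM in WT, with the highest in L12-ECKO replicate 1. Without that library Fli1 differed from WT by 0.99, Ets2 by -1.26 and Sox17 by -1.29. It is also the only L12-ECKO library in the batch of 7. Batch and myeloid content thus cannot be told apart in the L12-ECKO differences within that batch. The 11 lymphoid markers, another source of Ets1 and Fli1, summed to 3.2 to 33.9 CPM in L12YT-ECKO, 2.6 to 18.2 CPM in L12-ECKO and 1.6 to 28.4 CPM in WT. Platelet markers, whose lineage uses Fli1, and red cell markers together summed to 3019 to 10991 CPM in L12YT-ECKO, 1828 to 7935 CPM in L12-ECKO and 2601 to 15563 CPM in WT. This sum is mostly haemoglobin and tells little of platelets. Hba-a1 averaged 14.41 over the 12 libraries, and the platelet genes Itga2b and Pf4 averaged 5.89 and 4.41. Of 7 lymphatic markers, a compartment marked by Sox18, Prox1 was at 0 in all 12 libraries, and the list summed to 133.2 to 350.1 CPM in L12YT-ECKO, 368.1 to 572.8 CPM in L12-ECKO and 278 to 396.8 CPM in WT. Lyve1, by far the highest of the list, averaged 11.07, 12.36 and 11.68 in these groups. Of the 5 tested members 2 lay higher and 3 lower in L12-ECKO versus WT, with a median of -0.07. Hepatocyte markers went with the displaced rows and lay higher in L12-ECKO for all 8 tested members, summing to 34.8 to 197 CPM in L12YT-ECKO, 49.3 to 467.8 CPM in L12-ECKO and 24.2 to 82.8 CPM in WT, with Afp at 0 in all 12. Epithelial markers summed to 186.7 to 626 CPM in L12YT-ECKO, 80.9 to 475.8 CPM in L12-ECKO and 114.1 to 728.5 CPM in WT. Mesenchymal markers, of which Eln was by far the highest, summed to 1473 to 2917, 1731 to 3065 and 1221 to 2116 CPM in these groups. The part of these cells in the differences was not tested. With the batch as a covariate the differences in L12-ECKO versus WT were -0.86 for Ets2, -0.63 for Ets1, 0.82 for Fli1, 2.72 for Sox18 and -0.86 for Sox7, with limma adjusted p of 0.566 to 0.802.

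**Figure D4:**
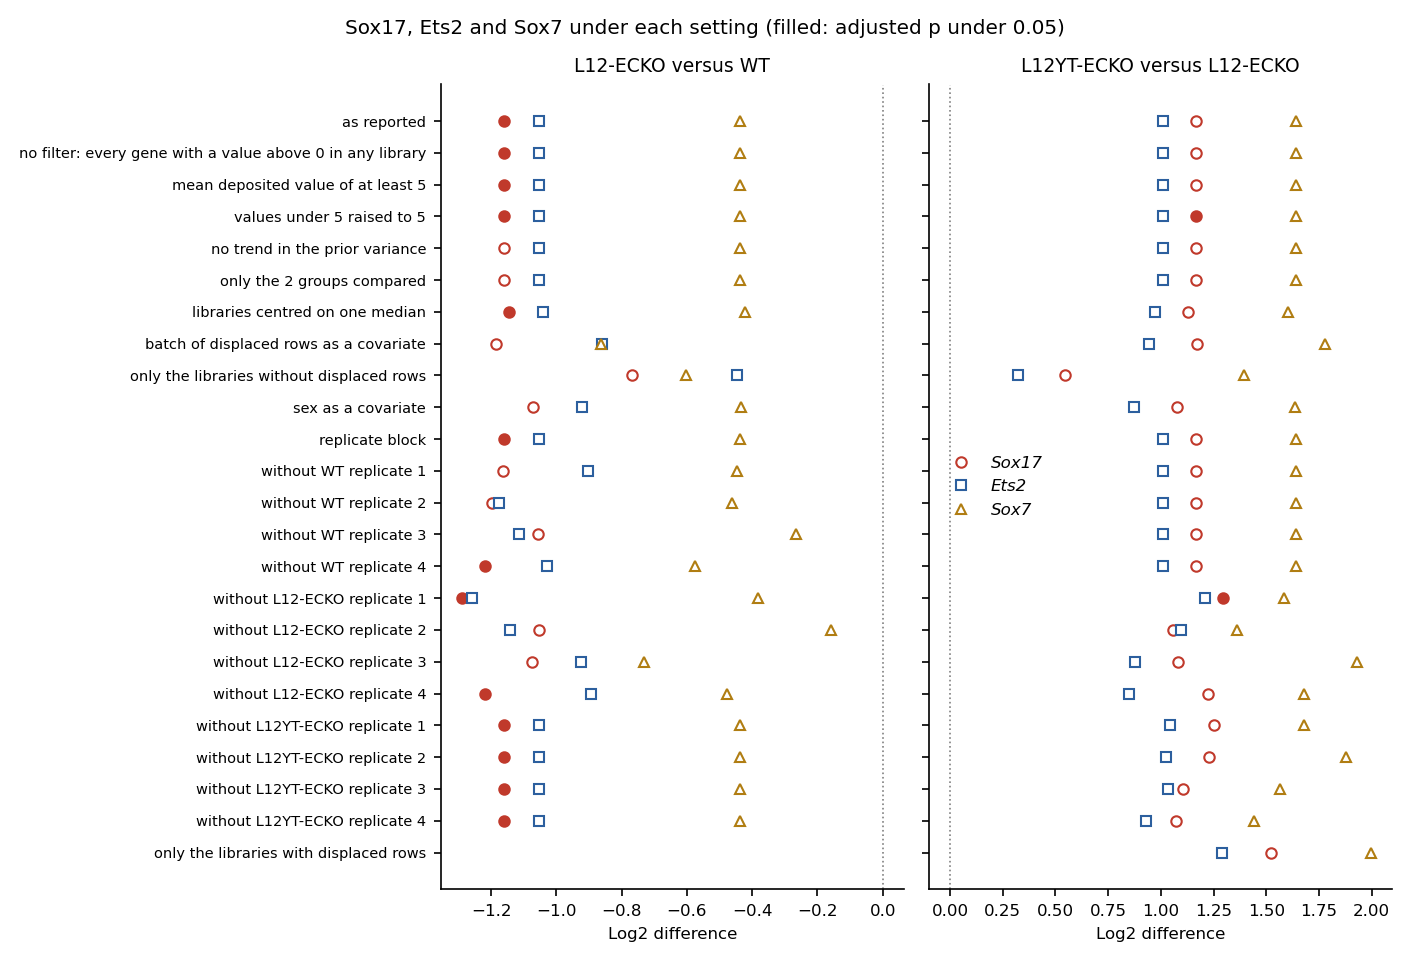
Log2 difference (x axis) of Sox17, Ets2 and Sox7 under each setting or with each library left out (y axis), in 2 comparisons; filled symbols have an adjusted p under 0.05, and the setting with a second logarithm, on another scale, is not drawn. The Sox17 points in L12-ECKO versus WT lie between -1.29 and -0.77, some filled and some open, and no Ets2 or Sox7 point is filled.

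Of 21 other ETS genes 13 were tested and none was called in any comparison, with 7 higher and 6 lower in L12-ECKO versus WT (median 0.26) and 8 higher and 5 lower in each of the other comparisons. Elf2 and Etv6, the highest of them, differed by 0.41 and 0.26 in L12-ECKO versus WT, -0.11 and 0.28 in L12YT-ECKO versus WT and -0.52 and 0.02 in L12YT-ECKO versus L12-ECKO. Of 16 other SOX genes 8 were tested, of which 6 lay higher and 2 lower in L12-ECKO versus WT (median 0.21), and Sox4, a SOXC factor of progenitor cells, was called. It had values of 11.67, 12.93, 12.86 and 12.45 in L12YT-ECKO, 11.31, 12.05, 11.82 and 11.37 in L12-ECKO and 12.92, 13.17, 12.86 and 13.09 in WT, and fell by 1.37 in L12-ECKO versus WT (SE 0.273, limma adjusted p = 0.0294). The call was lost without WT replicates 1, 2 or 4 or L12-ECKO replicates 1 or 4 (adjusted p up to 0.105) and with the batch covariate (adjusted p = 0.0628).

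Among 19 tested endothelial transcription factors of other families 12 lay lower and 7 higher in L12-ECKO versus WT, with a median of -0.45. Mef2a, a MADS-box factor that acts beside ETS proteins at endothelial enhancers, fell by 1.01 (limma adjusted p = 0.0474), a call that held on leaving out L12YT-ECKO replicate 1 or WT replicate 3 and was lost on leaving out any of the other 10 libraries (adjusted p up to 0.159). It was also lost with the batch covariate (difference -0.78, adjusted p = 0.411). In L12YT-ECKO versus WT 14 of the 19 lay lower with a median of -0.10, and in L12YT-ECKO versus L12-ECKO 13 lay higher with a median of 0.23, with no call in either.

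Genes known as SOXF targets lay lower in L12-ECKO versus WT in 10 of 11 tested members, with a median of -0.67. Gja4, an arterial gap junction gene, fell by 1.37 (limma adjusted p = 0.0481), a call lost without each of the 12 libraries in turn (adjusted p from 0.0539 to 0.16) and with the batch covariate (adjusted p = 0.242). Its values were 11.50, 11.28, 11.96 and 11.04 in L12YT-ECKO, 10.04, 10.51, 10.44 and 9.30 in L12-ECKO and 11.53, 11.60, 11.26 and 11.40 in WT, so the L12-ECKO libraries were again the 4 lowest. Tek, Efnb2 and Dll4 were also separated from WT, at -1.11, -1.25 and -0.69, without passing. With Gja4 this made 4 of the 11 tested members separated downward, and the rest overlapped with WT. Such a separation downward held for 3.36% of all genes tested. Prox1, the target of SOX18 in lymphatic specification, was not tested. In L12YT-ECKO versus WT 7 of 11 lay lower, with a median of -0.18, and in L12YT-ECKO versus L12-ECKO 7 of 11 lay higher, with a median of 0.07. There Cldn5, a tight junction gene known as a target of SOX18 and ERG, rose by 1.14 (SE 0.208, limma adjusted p = 0.04), and the call was kept only without L12-ECKO replicate 2 among the 12 fits that left out 1 library (adjusted p = 0.00804, against up to 0.16). Within the batch of 7 its difference was 1.27 (adjusted p = 0.0835), and within the batch of 5 it was 1.15 (adjusted p = 0.875), so it was not called within either. The list holds arterial genes whose change in these samples was known when it was drawn up, so its direction is not independent evidence.

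Genes known as targets of ERG, FLI1 or ETS1 were all tested, 22 in number. In L12-ECKO versus WT 14 lay lower and 7 higher, with a median of -0.12 and none called. In L12YT-ECKO versus WT 15 lay higher, with a median of 0.09 and none called, and in L12YT-ECKO versus L12-ECKO 16 lay higher, with a median of 0.13 and Cldn5 called. The list shares 5 genes with the SOXF targets. Egfl7 gave no information, as it was the second highest gene of each library and quantile normalisation fixes that rank at 17.72. Pecam1 and Eng, both adhesion or co-receptor genes of endothelium, differed by -0.14 and -0.04 in L12-ECKO versus WT. ERK feedback genes and SRF partners, the setting in which ETS1, ETS2 and ELK3 work, had 9 of 11 members tested and none called in any comparison. In L12-ECKO versus WT 7 lay higher and 2 lower, with a median of 0.59, and 5 lay higher and 4 lower in each of the other comparisons. The feedback inhibitor gene Spry1 had the widest difference in L12-ECKO versus WT, at 3.62 (limma adjusted p = 0.0903), and its relative Spry4 lay above all WT libraries in L12YT-ECKO, with a difference of 3.40 (limma adjusted p = 0.562). Spry4 values in WT ran from 3.16, also the lowest value above 0 in WT replicate 2, to 7.26. Dusp6 differed by 0.59 in L12-ECKO versus WT and 0.85 in L12YT-ECKO versus WT, and the coactivator gene Mkl2 by -0.83 and -0.85.

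**Figure D5:**
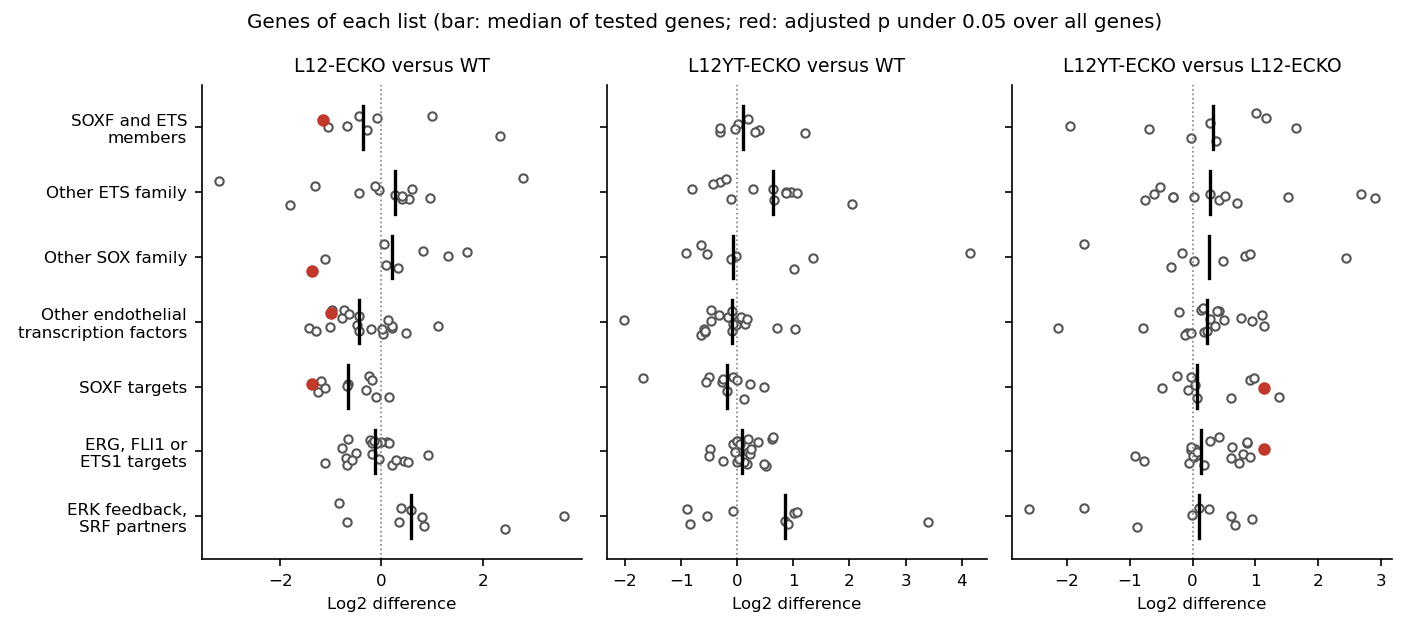
Log2 difference (x axis) of every tested gene of each list in the 3 comparisons, with the median as a bar and genes with an adjusted p under 0.05 in red. In L12-ECKO versus WT the SOXF targets have a median of -0.67 and the ERG, FLI1 or ETS1 targets one of -0.12.

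The genes whose values ran most like each of the 8 over the 12 libraries were found among genes with a mean of at least 7. Libraries of a group share their genotype and in part their batch, and no p is given. Sox17 ran most like Cd93, a receptor of endothelial cells (Pearson r = 0.94), Ldb2, an adaptor of LIM proteins (r = 0.91), and Efnb2, the arterial ephrin ligand (r = 0.89). After group means were removed these were 0.53, 0.64 and 0.59. Ets2 also had Efnb2 among its nearest (r = 0.88), behind Ddx39b and Dchs1 (r = 0.91 and 0.90). Sox7 ran most like Dos, Grasp and the netrin receptor gene Unc5b (r = 0.89, 0.87 and 0.86), Sox18 like Tmem43, 4931406P16Rik and Rbms1 (r = 0.87, 0.86 and 0.85) and Erg like Sh3glb1, Pi4ka and Lgals8 (r = 0.91, 0.91 and 0.85). Fli1 ran most like Mta1, Asap2 and Lmo4 (r = 0.93, 0.92 and 0.92), Ets1 like Psmd12, Hmcn1 and Eif3i (r = 0.97, 0.88 and 0.86) and Elk3 like Maged1, Farsa and Pea15a (r = 0.90, 0.81 and 0.79). Among the 8 genes themselves the highest r was 0.81, between Sox17 and Ets2, and the lowest -0.73, between Fli1 and Ets1.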

How the data were processed

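RNA from sorted lung endothelial cells was measured in 12 libraries. Per the labels' protocols, libraries were made with the Lexogen QuantSeq 3-prime kit from Trizol-extracted total RNA. Bowtie2, edgeR and mm10 are named in the submitters' processing notes, with no role or version. Each deposited table holds 24421 genes as log2 values; that the authors quantile normalised them was inferred from the values, the highest being 20.665 in every library. The number of genes above 0 and the lowest values still differ between libraries. Differences are relative, and depth is unknown. Groups and replicate numbers come from the titles; as separate animals are not stated, p-values measure the spread between libraries, which may be technical.

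Rows were matched on the gene symbol. The 27 genes with date-like names in 2 tables and 34 rows displaced or exchanged in 5 tables were not tested. Genes with at least 1 CPM in at least 4 libraries were kept, 11634 in all, including all 8 members. CPM was computed from the deposited values converted back from log2 and scaled to a common library total. limma 3.58.1 (R 4.3.3, statmod 1.5.0) fitted a mean per group over the 12 libraries, with a trended, robust variance prior and 9 residual degrees of freedom. P-values were adjusted by Benjamini-Hochberg over the whole table, with 0.05 as the threshold for a call. The step was tested on simulated data. Alternatives covered filters, low values, the variance prior, centring, batch, sex, replicate block and leaving out each library. Sex was inferred from expression, a library counting as female where its Xist value lay above its Ddx3y value. The members, gene lists and tests were chosen with earlier results of these data known. Genes named beside the members were mainly those called in any comparison or, where none was, the 2 with the highest mean of a list. For likeness they were the 3 with the highest correlation. Spry1, Spry4, Tek, Dll4, Efnb2, Pecam1, Eng, Cdk17 and Prox1 were added after their values were seen. The cell markers Egfl7, Lyve1, Afp, Hba-a1, Itga2b, Pf4 and Eln were likewise named with their levels known.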

Additional observations from a re-analysis of the deposited data

How the results depend on the processing

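Over the 8 members and 3 comparisons, 529 of 560 recomputed differences kept their direction and their side of the threshold, 10 lost a call, 2 gained one and 19 changed sign.

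The count of called members in L12-ECKO versus WT, 1, became 0 without a trend in the prior variance, in a fit of the 2 groups compared, with batch or sex as a covariate and in the 7 libraries without displaced rows, and ran from 0 to 1 when 1 library was left out. In L12YT-ECKO versus L12-ECKO the count of 0 became 1 with values under 5 raised to 5, and ran from 0 to 1 when 1 library was left out. Sox17 differed from WT in L12-ECKO by -1.16 with adjusted p = 0.243 without the trend and 0.051 in the fit of 2 groups, and by -1.07 with sex as a covariate (adjusted p = 0.104).

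The 56 genes called in L12-ECKO versus WT, 34 higher and 22 lower, became 21 with no filter, 27 with a second logarithm, 7 without the trend, 30 in the fit of 2 groups, 15 with batch and 15 with sex as a covariate, and ran from 15 to 80 when 1 library was left out. In the 7 libraries without displaced rows 18 were higher and 31 lower. The single call in L12YT-ECKO versus WT became 0 without the trend and ran from 1 to 3. The 8 calls in L12YT-ECKO versus L12-ECKO became 4 with a second logarithm, 3 without the trend, 5 in the fit of 2 groups, 14 in the 7 libraries, 5 with sex as a covariate and 0 in the 5 libraries with displaced rows, a setting chosen after seeing the data, and ran from 4 to 9.

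Of the signs that changed, Sox17 in L12YT-ECKO versus WT was -0.0137 with libraries centred on one median, -0.0121 with the batch covariate and -0.22 in the 7 libraries, and ran from -0.088 to 0.11 when 1 library was left out. Also in L12YT-ECKO versus WT, Ets2 was 0.0826 with the batch covariate and ran from -0.17 to 0.11, Sox18 was -0.11 in the 7 libraries and ran from -0.21 to 0.94, Elk3 was -0.0207 in the 7 libraries, and Fli1 ran from -0.0485 to 0.64. Elk3 in L12-ECKO versus WT ran from -0.24 to 0.0151, and Erg in L12YT-ECKO versus L12-ECKO was 0.0545 in the 7 libraries and ran from -0.24 to 0.15.

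Replicate numbers share no stated source, and no same-numbered pair correlated over 0.1 in its deviations from the group means (-0.05 to 0.06). With the replicate block 43, 1 and 6 genes were called in the 3 comparisons, in the order of the preceding paragraphs, and Sox17 kept its call in L12-ECKO versus WT (adjusted p = 0.0419). The block ended the calls of Gja4 (adjusted p = 0.0528), Mef2a (0.054) and Cldn5 (0.0915), and sex as a covariate ended them too (0.0973, 0.164 and 0.0571). No WT library has displaced rows and 3 of 4 L12-ECKO libraries do, so batch and genotype can be told apart only in part. Sex as inferred from Xist and Ddx3y is unbalanced too, with 1 female library in L12YT-ECKO, 3 in L12-ECKO and 1 in WT. Depth is unknown, so no floor can be given for low values.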
